A study of Mus musculus with 10 samples.

Results

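The genes described here encode 31 standard subunits of the proteasome, the large protease that degrades ubiquitin-tagged proteins. The rule picks them by gene symbol and uses no measured value, though they were proposed with earlier results of these data known. Of these, 14 form the core particle (Psma1 to Psma7 and Psmb1 to Psmb7) and 17 form the regulatory cap (Psmc1 to Psmc6 and 11 Psmd genes). All 31 were measured, among 10704 genes that could be tested in gastrocnemius, a calf muscle. Each gene is represented by its brightest probe set, the group of array probes that reads 1 transcript, and values are log2 of the deposited microarray intensity. All 31 representative probe sets passed the filter on dim signal, with means over the 10 arrays between 8.84 and 13.74.

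The muscle came from 10 male mice on a C57BL/6 background, 7.5 months old, with 1 array per mouse. In the floxed group (Floxed_Mstn, 5 mice, labelled as myostatin knockout) the myostatin genes were flanked by sites for Cre recombinase. The control group (WT_Mstn, 5 mice) had normal myostatin genes. Both groups carried the CAGG-CreER transgene, a Cre that acts once tamoxifen binds it, and both were given tamoxifen 8 times from the age of 4 months. The CAGG promoter is broadly active, so the transgene is not limited to muscle fibres. Myostatin, which muscle secretes, restrains its growth, and the comparison asks how mature muscle differs after its loss. The annotation names no probe set Mstn, and the deletion was therefore not checked from these arrays.

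In the proteasome, outer rings of alpha subunits close off inner rings of beta subunits, some of which carry the protease sites. The cap has a ring of ATPases (Psmc) that unfolds the substrate and threads it into the core. Its Psmd subunits bind ubiquitin chains, form a lid and cut the chains off. In muscle this pathway breaks down contractile proteins and is known for its activation in wasting. Subunit genes can be induced together by the transcription factor Nfe2l1, which binds the antioxidant response element in promoters.

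The promoter stretches that hold this element are shown because it is the known site of the factor that acts on these genes together. Promoter sequences from RefSeq (build GRCm38.p6, 250 bases before to 50 after each start site) matched 25 of the 31 genes. The element core was searched as TGACNNNGC on both strands and was found in 4 of the 25 (16.0%), against 12.4% of all 32851 promoters in that table. In the lines that follow, each read in the direction of the gene, the capitals mark the match.
Psmb5: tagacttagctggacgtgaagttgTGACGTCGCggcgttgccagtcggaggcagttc
Psmb6: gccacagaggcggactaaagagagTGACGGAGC
Psmc6: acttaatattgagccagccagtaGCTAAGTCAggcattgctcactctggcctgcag
Psmd12: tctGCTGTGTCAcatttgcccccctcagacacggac
The Psmb5 window is chr14:54618010-54618066 on the minus strand, and its match lies at -47 to -39 from the start site. The Psmb6 window is chr11:70525324-70525356 on the plus strand, with the match at -9 to -1, right before the start site. The Psmc6 window is chr14:45329574-45329629 and the Psmd12 window chr11:107479278-107479313, both on the plus strand with the match on the opposite strand, at -227 to -219 and at -247 to -239. The CCAAT box (CCAAT, both strands) was found in 10 of the 25 (40.0%), against 37.4% of all promoters, and in none of the 4 genes with the element core. These shares lie near those of all promoters, though the subunits were counted per gene and the background per promoter, so the units differ. A match describes letters in a window, not a bound site.

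Before the comparison, 1 array has to be set apart. On the array of control 3, 23 of the 31 genes had their lowest value of all 10 arrays (74.2%), while 29.5% of all tested genes were lowest there. The median deviation of the subunit genes from their own 10-array medians was -0.22 (log2) on that array, against -0.11 for all genes. Cap genes were further down than core genes there, with medians of -0.27 and -0.17. The mean of the 31 genes was 11.98 on control 3 and between 12.19 and 12.22 on the other 4 controls. In the floxed group it was 12.15, 12.26, 12.13, 12.24 and 12.23 for mice 1 to 5. The whole array of control 3 was also low: its median over all tested probe sets was 7.63, while the other arrays lay between 7.64 and 7.91. Floxed 3 had nearly the same array median (7.64) and 21.5% of all genes at their lowest, and 1 of the 31 subunit genes was lowest there. A gene has only 1 lowest array, so the 23 on control 3 limit that count. On floxed 3, 24 of the 31 lay below their own medians (72.1% of all genes), and 25 did on control 3 (67.7%). The median deviation of the subunit genes on floxed 3 was -0.06, against -0.1 for all genes. Bacterial control RNA spiked into every hybridisation, read by 7 probe sets, was highest on floxed 3 (13.46), floxed 1 (13.36) and control 3 (13.34), and lay between 12.84 and 13.16 elsewhere. The part of labelling or hybridisation in the low values of control 3 was not tested. For the subunit genes and their groups, differences that turn sign or move by more than 1.5 times without that array are given both ways.

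**Figure D1:**
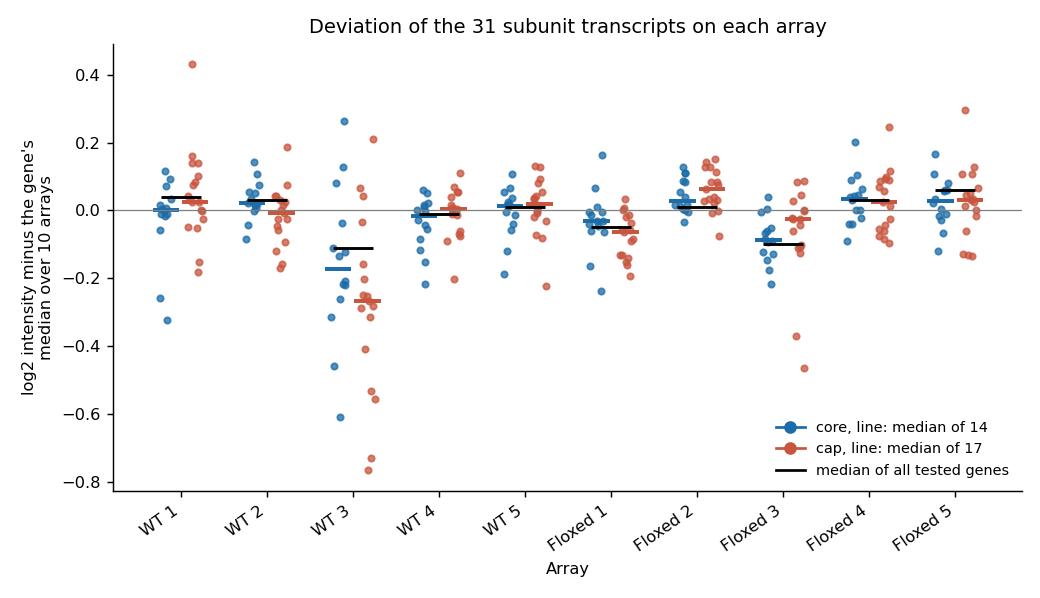
Each point is 1 of the 31 subunit genes on 1 array, plotted as its log2 intensity minus its own median over the 10 arrays (y axis), with core genes in blue, cap genes in red, coloured lines for their medians and black lines for the median of all 10704 genes. On the WT 3 array the core and cap medians lie at -0.17 and -0.27, under the all-gene median of -0.11, and on the other arrays they stay between -0.09 and 0.06.

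No subunit gene differed between floxed and control muscle past the threshold. With limma and Benjamini-Hochberg adjustment over 21154 probe sets, the adjusted p ran from 0.714 to 0.999 over the 31 genes, and 0 had an unadjusted p under 0.05. Over all genes tested, 0.131% were called at an adjusted p under 0.05 and 8.9% had an unadjusted p under 0.05. None of the 31 had groups that did not overlap, against 2.63% of all genes. The differences (floxed minus control) ran from -0.09 for Psmc5 to 0.15 for Psmd7, or 0.941-fold to 1.11-fold. In bulk tissue, fewer cells of a type and less RNA per cell cannot be told apart.

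The arrays bounded these differences closely for the brightest probe set of each gene. Dimmer tested probe sets of the same genes gave differences from -0.29 (Psma5) to 0.23 (Psmd11), and the bounds below do not cover them. For 28 of the 31 genes (90.3%) the 95% interval lay within a 1.3-fold change either way, against 42.0% of all genes, and for 30 of 31 (96.8%) it lay within 1.5-fold, against 67.6%. Psmd3 was the exception to the wider bound (-0.38 to 0.61), and Psmb2 and Psmd7 also reached 1.3-fold. The median standard error was 0.0793 for the 31 genes and 0.133 for all genes. The 31 genes were not matched to all genes for brightness. Their means were 8.84 to 13.74, while the array medians over all tested probe sets were 7.63 to 7.91. The part of brightness in the narrower intervals was not tested. These intervals cover the spread between arrays only.

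**Figure D2:**
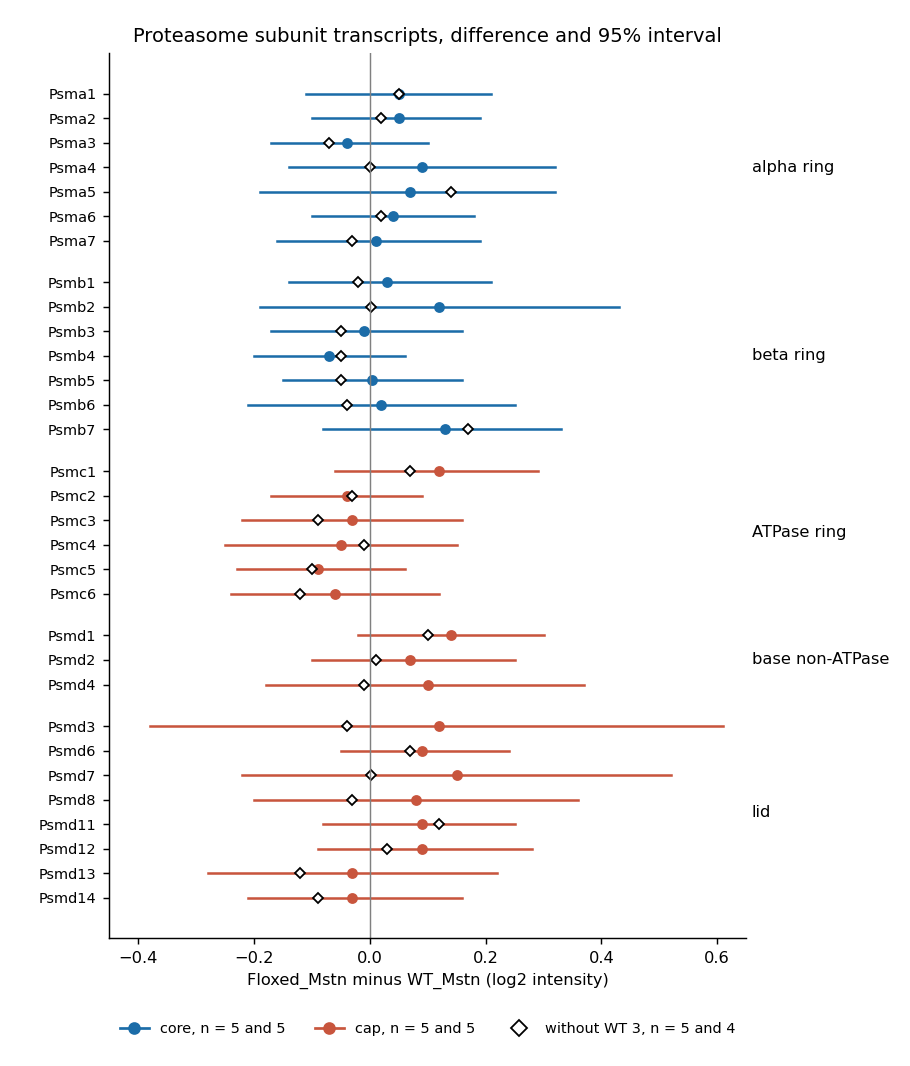
Each row is a subunit gene, grouped by its place in the proteasome; filled circles show the floxed minus control difference in log2 intensity (x axis) with its 95% interval over 5 and 5 arrays, and open diamonds the difference without WT 3. Every interval crosses 0, and the filled circles run from -0.09 to 0.15.

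The small lean toward higher values rested on control 3. With all arrays 21 of the 31 genes had a higher value in floxed muscle and the median difference was 0.05, where 48.5% of all genes were higher. Without control 3, 14 of the 31 were higher (45.2%) and 17 lower, with a median of -0.01. All genes shifted down as well: the share higher went to 40.0%, and their median difference went from -0.0049 to -0.04. Leaving out any other single array left between 18 and 24 of the 31 higher.

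The core and the cap both had small positive medians. The core had 11 of 14 genes higher with a median difference of 0.04, and the cap 10 of 17 with 0.08. Without control 3 both medians were -0.01, with 7 of 14 and 7 of 17 genes higher. Read per array, the mean of the core genes minus the mean of the cap genes was 0.57, 0.69, 0.76, 0.61 and 0.63 on controls 1 to 5. It was 0.69, 0.63, 0.63, 0.65 and 0.64 on floxed 1 to 5, so the groups overlapped, with control 3 highest and control 1 lowest. The group means of this contrast were 0.65 ± 0.07 in controls and 0.65 ± 0.02 in floxed muscle (SD, n = 5 each). Levels of different probe sets are not comparable, so only the change of this contrast between arrays carries meaning.

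In the alpha ring, which gates the entry to the core, 6 of 7 genes had higher values (median difference 0.05), and 5 of 7 without control 3 (median 0.02). Psma3 had -0.04, and -0.07 without that array. Psma4 read 11.07, 11.11, 10.62, 11.04 and 11.11 on controls 1 to 5 and 11.09, 11.19, 11.03, 11.13 and 10.96 on floxed 1 to 5. Control 3 alone was low and the groups otherwise overlapped. Its difference was 0.09 ± 0.10 (SE, adjusted p = 0.940), and 0.0006 without control 3. Psma1 did not share the low value: it read 11.55, 11.52, 11.57, 11.65 and 11.59 in controls and 11.77, 11.62, 11.46, 11.63 and 11.66 in floxed muscle. Floxed 1 was highest and floxed 3 lowest, with the controls between them, and the difference was 0.05 ± 0.07 (adjusted p = 0.958). Psma2, Psma5, Psma6 and Psma7 had differences of 0.05, 0.07, 0.04 and 0.01, and without control 3 these were 0.02, 0.14, 0.02 and -0.03.

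The beta ring holds the protease sites, and its 7 genes had a median difference of 0.02 with 5 higher. Without control 3 the direction turned, with 2 of 7 higher and a median of -0.04. Psmb5, which carries the chymotrypsin-like site that the drug bortezomib blocks, read 13.22, 13.17, 12.93, 13.15 and 13.17 in controls 1 to 5. In floxed 1 to 5 it read 13.15, 13.16, 13.06, 13.15 and 13.14. Control 3 and floxed 3 were lowest, and the other 8 arrays lay between 13.14 and 13.22. The difference was 0.0031 ± 0.07 (95% interval -0.15 to 0.16, adjusted p = 0.999), and -0.05 without control 3. Psmb6, with the caspase-like site, read 13.60, 13.59, 13.17, 13.33 and 13.44 in controls and 13.32, 13.52, 13.31, 13.54 and 13.54 in floxed muscle. All floxed values lay within the controls' range (0.02 ± 0.10, adjusted p = 0.991), and the difference was -0.04 without control 3.

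Psmb7, with the trypsin-like site, ran another way across the arrays. It read 13.12, 13.48, 13.53, 13.36 and 13.26 in controls and 13.51, 13.41, 13.36, 13.54 and 13.55 in floxed muscle. Control 1 was the lowest array and control 3 the highest control. Its difference of 0.13 ± 0.09 was the largest in the core (adjusted p = 0.840), and it was 0.17 without control 3 and 0.07 without control 1. Psmb4, a structural beta subunit, was also highest on control 3: 12.76, 12.76, 12.89, 12.82 and 12.77 in controls against 12.73, 12.76, 12.77, 12.67 and 12.73 in floxed muscle. The groups overlapped at 12.76 and 12.77, with a difference of -0.07 ± 0.06 (adjusted p = 0.883). Psmb1, Psmb2 and Psmb3 had differences of 0.03, 0.12 and -0.01, and without control 3 these were -0.02, 0.0016 and -0.05.

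In the ATPase ring, the motor of the cap, 5 of 6 genes had lower values in floxed muscle, with a median difference of -0.05. This count was the same without control 3, with a median of -0.06. Of all genes, 48.5% were higher with all arrays and 40.0% without control 3. Psmc5 read 11.54, 11.43, 11.36, 11.40 and 11.39 in controls and 11.27, 11.43, 11.27, 11.30 and 11.42 in floxed muscle. Floxed 1, 3 and 4 lay under every control and the other two within the controls' range. The difference was -0.09 ± 0.07 (95% interval -0.23 to 0.06, adjusted p = 0.858). Psmc2, Psmc3, Psmc4 and Psmc6 had -0.04, -0.03, -0.05 and -0.06, and without control 3 these were -0.03, -0.09, -0.01 and -0.12. With all arrays, the dimmer tested probe sets of Psmc6 gave 0.02 and 0.13, while those of Psmc2 and Psmc4 gave -0.03 and -0.1. Psmc1 alone was higher: 11.79, 11.67, 11.48, 11.75 and 11.75 in controls and 11.67, 11.88, 11.85, 11.85 and 11.78 in floxed muscle. Control 3 was lowest, and floxed 2, 3 and 4 lay above every control (0.12 ± 0.08, adjusted p = 0.818, and 0.07 without control 3).

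The other base subunits are the scaffolds Psmd1 and Psmd2 and the ubiquitin receptor Psmd4. All 3 had higher values (median difference 0.10), but 2 of 3 without control 3 (median 0.01). Psmd1 had the lowest p of the 31 genes, reading 12.82, 12.75, 12.62, 12.89 and 12.84 in controls and 12.87, 12.89, 12.87, 12.99 and 13.00 in floxed muscle. Only control 4 reached into the floxed range. The difference was 0.14 ± 0.07 (95% interval -0.02 to 0.30), 1.10-fold, with an unadjusted p of 0.0727 and an adjusted p of 0.714 by limma. Without control 3 it was 0.10. Psmd1 is the only one of the 31 on chromosome 1, which also carries Mstn, with 232 protein-coding genes between them in the GRCm38.p6 gene order. Any part of that location in its value was not tested.

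Psmd2 read 12.54, 12.56, 12.28, 12.57 and 12.61 in controls and 12.50, 12.69, 12.54, 12.59 and 12.60 in floxed muscle, so that control 3 alone stood apart. Its difference was 0.07 ± 0.08 (adjusted p = 0.933), and 0.01 without that array. Psmd4 read 11.39, 11.34, 10.81, 11.28 and 11.40 in controls and 11.17, 11.40, 11.26, 11.46 and 11.41 in floxed muscle. Control 3 alone was under every other array. Its difference of 0.10 ± 0.12 (adjusted p = 0.956) became -0.01 without that array.

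The lid removes ubiquitin chains, and 6 of its 8 genes had higher values (median difference 0.09), but 4 of 8 without control 3 (median -0.01). Psmd14, the enzyme that cuts the chains off, read 12.02, 11.97, 11.68, 12.00 and 12.00 in controls and 11.86, 12.02, 11.92, 11.92 and 11.81 in floxed muscle. Except for control 3, the controls lay at the upper end of the floxed range. Its difference was -0.03 ± 0.08 (adjusted p = 0.988), and -0.09 without control 3. Psmd6 read 13.51, 13.45, 13.35, 13.43 and 13.50 in controls and 13.45, 13.63, 13.53, 13.52 and 13.57 in floxed muscle. All floxed arrays but floxed 1 lay above every control (0.09 ± 0.06, adjusted p = 0.819). Psmd11 read 11.24, 11.41, 11.46, 11.33 and 11.17 in controls and 11.43, 11.32, 11.44, 11.49 and 11.38 in floxed muscle. The controls spread more widely and held the lowest arrays, 5 and 1 (0.09 ± 0.07, adjusted p = 0.891). Psmd3, Psmd7, Psmd8, Psmd12 and Psmd13 had differences of 0.12, 0.15, 0.08, 0.09 and -0.03, and without control 3 these were -0.04, 0.0021, -0.03, 0.03 and -0.12.

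**Figure D3:**
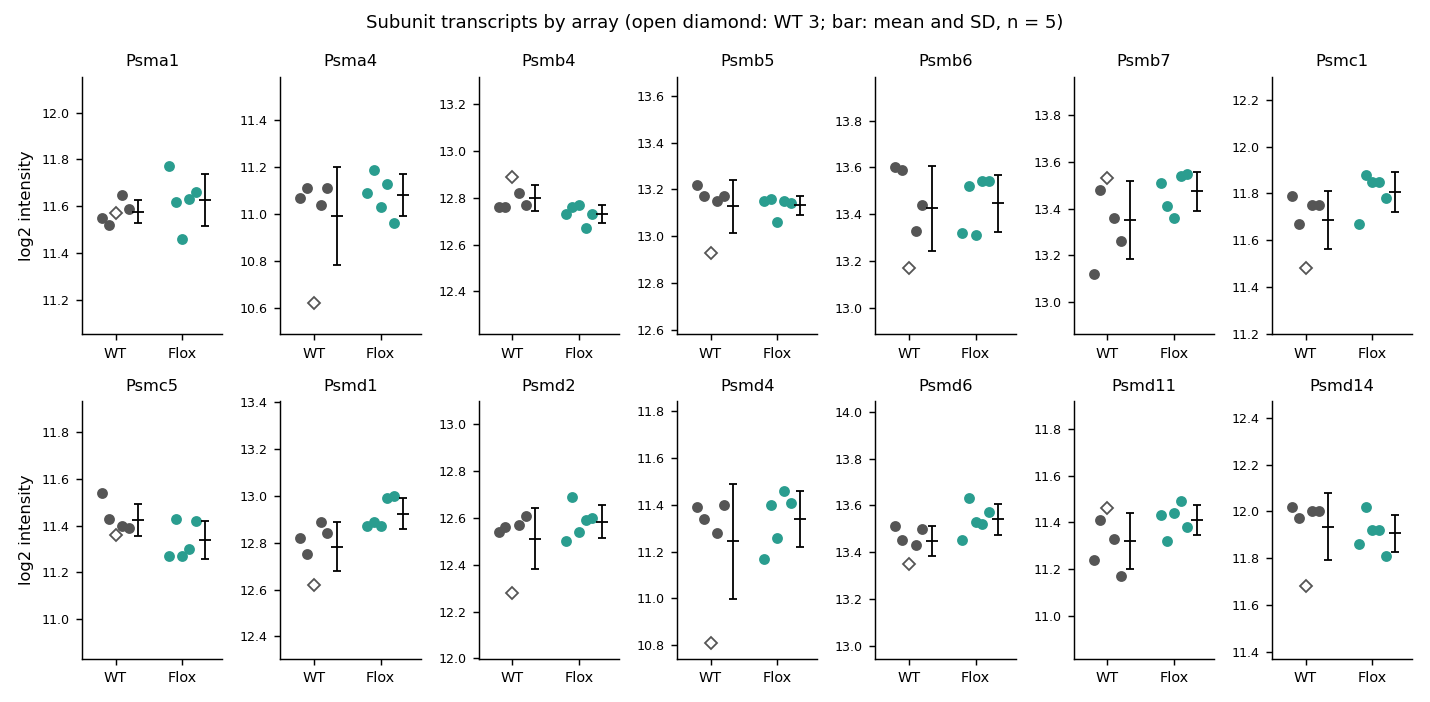
Each panel shows 1 subunit gene, with the log2 intensity (y axis, the same span in each panel) of the 5 WT and 5 floxed arrays as points, WT 3 as an open diamond, and bars for the mean and SD. WT 3 lies under all other arrays for Psma4, Psmb5, Psmb6, Psmc1, Psmd1, Psmd2, Psmd4, Psmd6 and Psmd14, and above the other controls for Psmb4, Psmb7 and Psmd11.

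The controls also spread more than the floxed mice with all arrays included. The SD among controls exceeded that among floxed mice for 25 of the 31 genes, against 48.9% of all genes, with medians of 0.13 and 0.08. Without control 3 the median SD of the controls was 0.06, and 8 of 31 were larger than in floxed muscle. That array was set apart for its low values, with 23 of the 31 genes lowest there. A smaller spread without it follows from that choice, and no conclusion is drawn from it.

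The brightest probe set did not always speak for its gene. Of 67 probe sets that carry 1 of the 31 symbols alone, 56 passed the filter, and 0 of these was called (adjusted p, limma; lowest unadjusted p 0.0727). Of 16 genes with more than 1 tested probe set, 10 had the same sign on all. On control 3, however, the 2 brightest probe sets of 6 genes pointed opposite ways, each by more than 0.1 from the median of the other controls. For Psma5 these deviations were 0.38 and -0.36, for Psmc4 0.20 and -0.29, and for Psmb4 0.12 and -0.18. For Psmd11 they were 0.17 and -0.20, for Psmd6 -0.13 and 0.19, and for Psma3 -0.17 and 0.12, where the second probe set is dim (mean 5.78). The brightest probe sets of Psma6, Psmb4 and Psmc2 bear the platform's x_at suffix, which marks probes that may also bind other transcripts, so their values are uncertain.

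**Figure D4:**
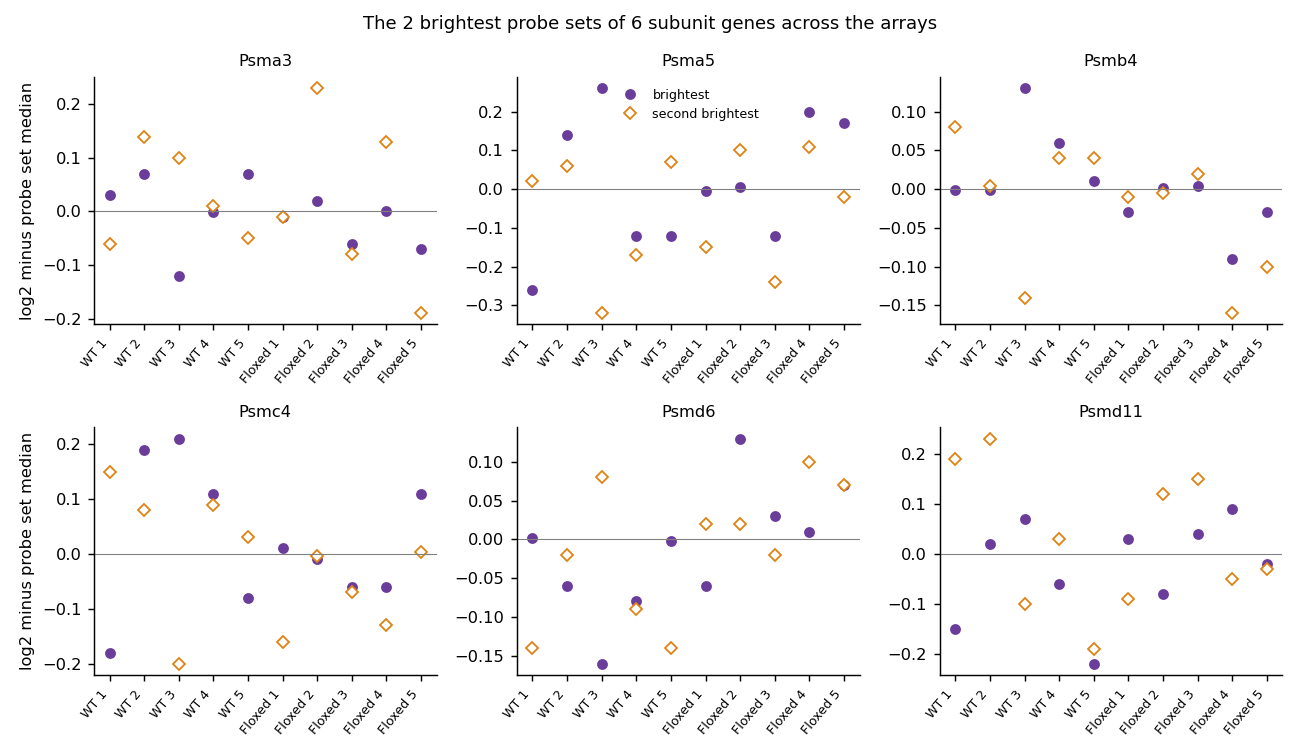
Each panel shows the brightest (filled) and second brightest (open) probe set of 1 gene on the 10 arrays (x axis), as log2 intensity minus that probe set's own median (y axis, scaled per panel). On WT 3 both probe sets of each gene lie on opposite sides of 0, as for Psma5 at 0.26 and -0.32.

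Other genes of the pathway were read from lists of its helpers and regulators, and none of their 39 tested members passed the threshold (limma, lowest adjusted p 0.195). At an unadjusted p under 0.05 there were 4 of 39, namely Fbxo32, Trim63, Ubqln4 and Usp14, near the 8.9% of all genes at that level. Assembly chaperones, which build the particle, had 7 of 8 higher with a median of 0.09, but 3 of 8 without control 3 (median -0.03). Psmg2 (0.11 ± 0.08, adjusted p = 0.819) and Psmg3 (0.17 ± 0.15, adjusted p = 0.894) had the lowest p. Without control 3, which read lowest for Psmg3, these differences were 0.11 and 0.03. Pomp, the maturation factor of the core, had -0.01 ± 0.06, and -0.03 without control 3.

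The alternative subunits, activators and the inhibitor had 5 of 7 higher (median 0.05), and 4 of 7 without control 3 (median 0.03). Those of lowest p were the inhibitor Psmf1 (0.23 ± 0.16, adjusted p = 0.837) and the activator Psme3 (0.07 ± 0.07, adjusted p = 0.923), and without control 3 they had 0.15 and 0.04. The other tested probe sets of Psmf1 gave -0.21 and 0.41. The immunoproteasome subunit Psmb8, named here after its values were seen, read 8.61 on control 3 and 6.37 to 6.71 on the other controls, with 6.67 to 7.07 in floxed muscle. Its difference was -0.16 ± 0.38 (adjusted p = 0.984) and 0.25 without control 3. The Psmb8 probe set bears the x_at suffix, so these values are uncertain. The immunoproteasome subunits Psmb9 and Psmb10 went the other way on control 3. Psmb9 read 3.78 there, under the filter level of 4, with 4.78 to 5.38 on the other controls and 4.31 to 5.41 in floxed muscle. Psmb10 read 9.56 there and 9.69 to 9.86 on the other controls. In floxed muscle Psmb10 read 9.44 to 9.84, and floxed 3 was its lowest array.

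Cap-associated and shuttle proteins, which carry or trim ubiquitin chains at the cap, had 9 of 10 higher, with a median of 0.09, and 8 of 10 without control 3 (median 0.07). Ubqln4, a shuttle that delivers ubiquitinated proteins, read 11.67, 11.67, 11.52, 11.75 and 11.72 in controls and 11.92, 11.93, 11.80, 11.93 and 11.93 in floxed muscle. Its groups did not overlap, and the difference was 0.24 ± 0.07, 1.18-fold (unadjusted p = 0.00476, adjusted p = 0.383). Usp14, a ubiquitin-removing enzyme docked on the cap, read 9.15, 9.16, 9.09, 9.01 and 9.13 in controls and 9.34, 9.49, 8.99, 9.64 and 9.45 in floxed muscle. All floxed arrays but floxed 3 lay above every control (0.27 ± 0.11, adjusted p = 0.606).

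Of the transcriptional regulators, 3 of 5 were higher (median 0.02), but 1 of 5 without control 3 (median -0.06). Nfe2l1 itself had 0.02 ± 0.06 (95% interval -0.13 to 0.16, adjusted p = 0.990), and -0.01 without that array. Nfe2l2, a related factor of the oxidative stress response, read 10.33, 9.89, 9.60, 9.75 and 10.06 in controls and 9.30, 9.71, 9.35, 9.79 and 9.83 in floxed muscle. The groups overlapped between 9.60 and 9.83 (-0.33 ± 0.16, adjusted p = 0.698). Mafg, a partner of both, had -0.10 ± 0.11 (adjusted p = 0.943), and -0.16 without control 3. The 4 genes with the element core in their promoter, Psmb5, Psmb6, Psmc6 and Psmd12, had differences of 0.0031, 0.02, -0.06 and 0.09. Without control 3 these were -0.05, -0.04, -0.12 and 0.03, so that 3 of the 4 were then lower.

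Muscle ubiquitin ligases, which choose the proteins to be degraded, had 8 of 9 higher with a median of 0.10, and 8 of 9 without control 3 (median 0.11). The atrophy ligase Fbxo32 lay between 11.73 and 11.87 in controls and between 11.95 and 12.43 in floxed muscle, without overlap (0.47 ± 0.10, 1.39-fold, adjusted p = 0.195). Trim63, the other atrophy ligase, lay between 11.76 and 12.07 in controls and between 12.02 and 12.33 in floxed muscle (0.28 ± 0.09, adjusted p = 0.469). The ubiquitin genes and the ubiquitin-activating enzyme Uba1 are not analysed here.

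**Figure D5:**
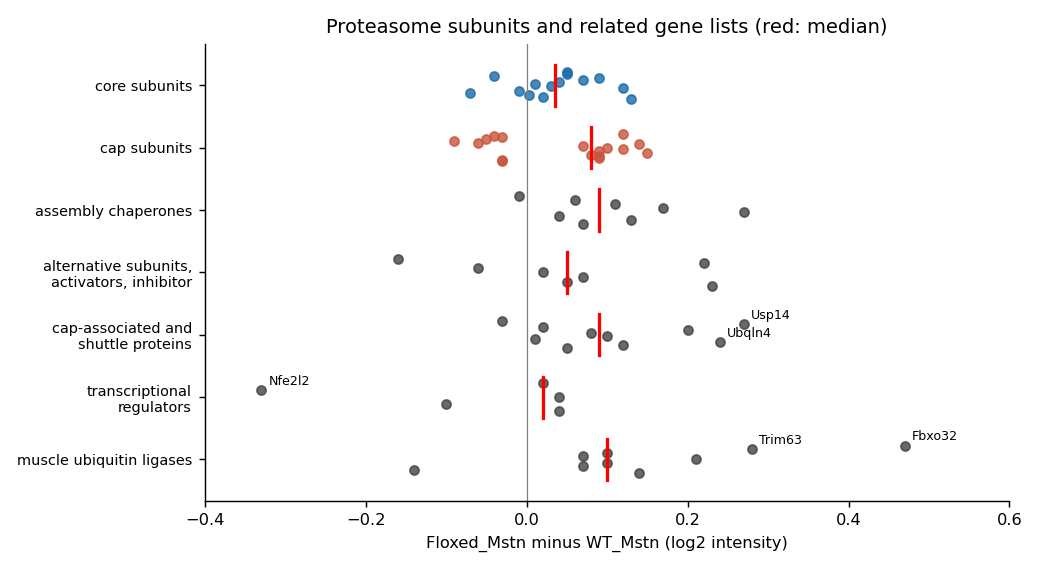
Each point is a gene, placed by its floxed minus control difference in log2 intensity (x axis) in rows for the core, the cap and 5 lists of related genes, with a red line at each median. Medians lie between 0.02 and 0.10, and the points farthest from 0 are Fbxo32 (0.47), Nfe2l2 (-0.33) and Trim63 (0.28).

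The tissue matched its label: all 10 fibre markers listed, such as Ckm, Acta1 and Myh4, had means between 14.16 and 15.67, and their summed intensity was 338000 to 359000 in controls and 341000 to 361000 in floxed muscle. Markers of other tissue were lower in floxed muscle in value: fibroblast (8 of 8, summed 22300 to 27600 against 15000 to 20900), tendon (5 of 5, 28300 to 34500 against 15100 to 29300), macrophage and leukocyte (9 of 9, 8480 to 12400 against 5910 to 11000) and endothelial (5 of 6, 3000 to 3380 against 2510 to 2890). The tendon sum rests mostly on Fmod (control mean 14.65, against 5.05 to 11.99 for the others). In the macrophage and leukocyte sum C1qb is the largest part (12.61, against 5.46 to 11.19). Both are read by x_at probe sets, so these sums are uncertain. Adipocyte markers were even in direction (2 of 4 lower, 17100 to 19800 against 15600 to 20700). Their sum rests mostly on Fabp4 (control mean 14.11, against 5.74 to 9.38 for the others). On floxed 3, Adipoq read 7.14 (8.71 to 9.99 elsewhere), Retn 7.25 (7.94 to 9.22) and Cidec 4.51 (5.52 to 6.71). Fabp4 read 13.90 there, and floxed 5 was lowest with 13.88. None of these markers was called by limma (lowest adjusted p 0.104, for Col1a1). The part of tissue makeup in the subunit values was not tested.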

How the data were processed

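RNA from the gastrocnemius of 10 mice, extracted with Trizol and made into biotinylated cDNA with NuGEN kits per the labels, was read on 1 array per mouse. The deposited values are linear intensity per probe set, made by the authors with GCRMA per the submitters' processing notes; the version used is not stated in the labels. These deposited intensities were put on a log2 scale, with no further scaling. Of 45101 probe sets, 34958 carry 1 gene symbol in the platform annotation, 932 several, and 9211 are not listed there; only those with 1 symbol name a gene. After 64 control probe sets were left out, 21154 with a mean log2 of at least 4 were tested two-sided with lmFit and eBayes of limma 3.58.1 (R 4.3.3), adjusted by Benjamini-Hochberg over all of them, with a threshold of 0.05. The brightest probe set stands for a gene.

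The array count limits the precision. Correlations between arrays were 0.944 to 0.991, and 0 pairs were identical. The fit was tested on simulated data. The subunits and all lists were chosen with earlier results of these data known. Values per array are given for the 2 genes of lowest p in each ring, base and lid, for Psmb5, Psmb6, Psmb7, Psmd4 and Psmd14, and the 2 of lowest p in each related list are named. Promoters are those of RefSeq, and 6 subunits had none in that table.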

Additional observations from a re-analysis of the deposited data

Results flagged for a closer look

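In 10 of 56 groups of 5 arrays, 1 array lay far from the others by Dixon's criterion at 95%. About 1 in 20 groups, or 2.8, would do so by chance if the groups were independent. They share the same 10 arrays, and some are means of genes also counted singly, so 10 cannot be judged against 2.8. Most of the 10 far-off values are on the array of control 3. There the mean of all 31 subunit genes was 11.98, against 12.19 to 12.22 on the other controls, and the mean of the cap genes was 11.64, against 11.90 to 11.96. Psma4 read 10.62 there (11.04 to 11.11 on the other controls), Psmd2 12.28 (12.54 to 12.61), Psmb5 12.93 (13.15 to 13.22), Psmd4 10.81 (11.28 to 11.40) and Psmd14 11.68 (11.97 to 12.02). The same array was low for many genes and had high hybridisation controls, and their part in these values was not tested.

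In the floxed group, Psmb5 read 13.06 on floxed 3 against 13.14 to 13.16 on the others. Ubqln4 read 11.80 on floxed 3 against 11.92 to 11.93, and Mafg read 9.84 on floxed 1 against 10.12 to 10.21.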

How the results depend on the processing

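No subunit gene was called under any of the 21 settings that gave a test, and the lowest adjusted p by limma was 0.363 (Psmd1, with the hybridisation controls as a covariate). At an unadjusted p under 0.05 there was 1 subunit gene with that covariate, 1 with trend and robust variance and 2 without the filter (Psmb4 and Psmd1). The share of all genes at that level was 8.9% in the main fit and was not counted under these settings. No conclusion is drawn from these counts. The median difference of the 31 genes was -0.01 without control 3 and at most 0.06 otherwise, and the number higher went from 14 (without control 3) to 24 (without control 1). The number of probe sets called over the whole array, 21, was less stable: 67 with array weights, 99 with the covariate, 11 without the filter, 36 after quantile normalization, 58 with trend and robust variance, 5 without the 3 arrays of highest hybridisation controls, and 1 to 17 leaving out 1 array. With the replicate number as a block it was 1, and Psmd1 had an adjusted p of 0.68. Same-numbered deviations correlated at -0.515, 0.133, 0.618, -0.2 and 0.188. These values, 1 per number and of mixed sign, cannot decide whether the numbers pair the mice. The main fit did not pair them.

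Of 528 values of named genes under alternatives, 16 turned their sign and 512 kept direction and side of the threshold. Psmb5 was -0.02 with array weights, -0.01 after quantile normalization, -0.03 without the 3 arrays, and -0.05 to 0.03 leaving out 1 array. Leaving out 1 array gave -0.04 to 0.06 for Psmb6 and -0.01 to 0.14 for Psmd4. Psma1 was -0.01 as the mean of its probe sets and -0.07 on its second brightest, where Psmd11 was -0.01 and Psmf1 -0.21. The cause was not tested. Arrays give no read depth, and dim probe sets are the least certain.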

Other observations

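Genes of the pathway outside the named set also stood apart on control 3, and they are given here after their values were seen. The cap assembly chaperone Psmd9 read 6.49 on control 3 and 7.90 to 8.25 on the other controls, with 7.30 to 8.28 in floxed muscle. The chaperone Psmg4, a dim probe set, read 3.03 on control 3, under the filter level of 4. It read 4.45 to 5.57 on the other controls. Vcp, the ATPase that extracts ubiquitinated proteins from complexes, read 11.45 there and 11.79 to 12.13 on the other controls. Txnl1, a thioredoxin-like protein docked on the cap, went the other way, with 12.88 there and 12.61 to 12.77 on the other controls.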
